A study of Mus musculus with 2 samples.

Results

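The interleukin 1 and 18 receptor cluster is a row of 6 receptor genes on mouse chromosome 1, in the order Il1r2, Il1r1, Il1rl2, Il1rl1, Il18r1 and Il18rap, all transcribed in the same direction. The 6 genes were chosen with earlier results of these data known. They were taken out of 21938 protein-coding genes of the GENCODE annotation of mm10, the genome build of the data. Every open region of both libraries was collected from Il1r2 to Il18rap (40074079 to 40551705, 478 kb) and 50 kb on each side, a window of 578 kb from 40024079 to 40601705. Regions of the 2 libraries that overlapped by at least 1 bp were joined, which gave 41 regions in the window out of 67133 in the genome. They are numbered 1 to 41 along the chromosome.

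Receptors of this family carry immunoglobulin domains outside the cell and a Toll/interleukin 1 receptor (TIR) domain inside it, pair with a co-receptor chain once a ligand is bound, and signal through Myd88 and the Irak kinases to NF-κB and the MAP kinases. Il1r1 binds interleukin 1 and signals, whereas Il1r2 binds it without a TIR domain and acts as a decoy. Il1rl2 is the receptor for the interleukin 36 cytokines, Il1rl1 (ST2) the receptor for interleukin 33, and Il18r1 and Il18rap the binding and accessory chains for interleukin 18. ST2 is a known surface receptor of T helper 2 (Th2) cells, and its transcripts start at a distal or a proximal promoter, the distal one being known for use in Th2 and mast cells. The interleukin 18 receptor is best known on T helper 1 and natural killer cells.

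The data are ATAC-seq maps of open chromatin, made with a transposase that places sequencing adapters into accessible DNA, from primary Th2 cells of the mouse strain C57BL/6NJ. The labels give 1 group of 2 libraries, biological replicates 1 and 2, with no treatment, control or other cell type, sex not collected and age unknown. Both replicates carry the same donor record and different biosample records, and whether the cells were taken from 1 animal or several is not stated, so a difference between replicates may be a technical one. Names of the regions carry a word for 96 hours and the words ASTARR and insert, which no source used here explains. Whether the sequenced fragments were taken directly from cells or from a cloned library is therefore not known here. Each deposited list held the positions of open regions with the authors' fold enrichment, the ratio of the signal at a region's summit to local background. Replicate 1 listed 51557 regions and replicate 2 listed 60891, with median summit pileups, the counts recovered from the deposited values without knowing whether they are of fragments, reads or cut sites, of 31 and 37.

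The label of the cells was checked against promoter regions of marker genes. A region was called shared when both lists held it, and a promoter region was a shared region centred within 1 kb of an annotated start site of the gene. Such a region was present at 7 of 7 Th2 markers, Gata3, Il4, Il5 and Il13 among them, and at 7 of 7 matched markers of CD4 T cells, against 57.3% of all protein-coding genes. Median fold enrichments in replicates 1 and 2 were 6.04 and 6.94 at the Th2 markers, with Il13 lowest at 2.60 and 2.76. At the CD4 T cell markers they were 6.65 and 7.91, with Cd4 lowest at 2.75 and 3.88. Cd3d and Cd3g had the same promoter region (6.35 and 6.96), which was counted for both genes. A shared promoter region was present at 1 of 8 markers of mast cells and basophils (Kit, with 3.85 and 2.94 in replicates 1 and 2). It was present at 0 of 5 of B cells and 1 of 6 of myeloid cells. The myeloid one, Cd14, had 7.15 and 7.09, above the Th2 medians. It was present at 2 of 6 of CD8 T and natural killer cells, Cd8b1 and Eomes, with medians of 3.76 and 5.91. Of group 2 innate lymphoid cells 5 of 6 had one, with medians of 6.45 and 7.54. Among markers of other cells without one, Hdc, Pax5 and Itgam held 4, 3 and 2 shared regions in their bodies, and the rest held none. Mast cells and group 2 innate lymphoid cells also use Il1rl1, and the part of other cells in the regions described here was not tested. In a bulk library, fewer cells with an open region and less opening per cell cannot be told apart.

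Of the 41 regions in the window, 24 were shared, 4 were in the list of replicate 1 alone and 13 in that of replicate 2 alone. In the window, 25 of 29 regions of replicate 1 (86.2%) overlapped one of replicate 2, against 86.7% of its whole list. Of the 37 regions of replicate 2 there, 24 (64.9%) overlapped one of replicate 1, against 73.5% of its whole list. Shared regions were denser in the cluster than across the chromosomes, at 4.15 against 1.62 per 100 kb. Of 4710 consecutive tiles of the window's length over the genome, 13.9% held at least 24 shared regions, and the median tile held 4.

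**Figure D1:**
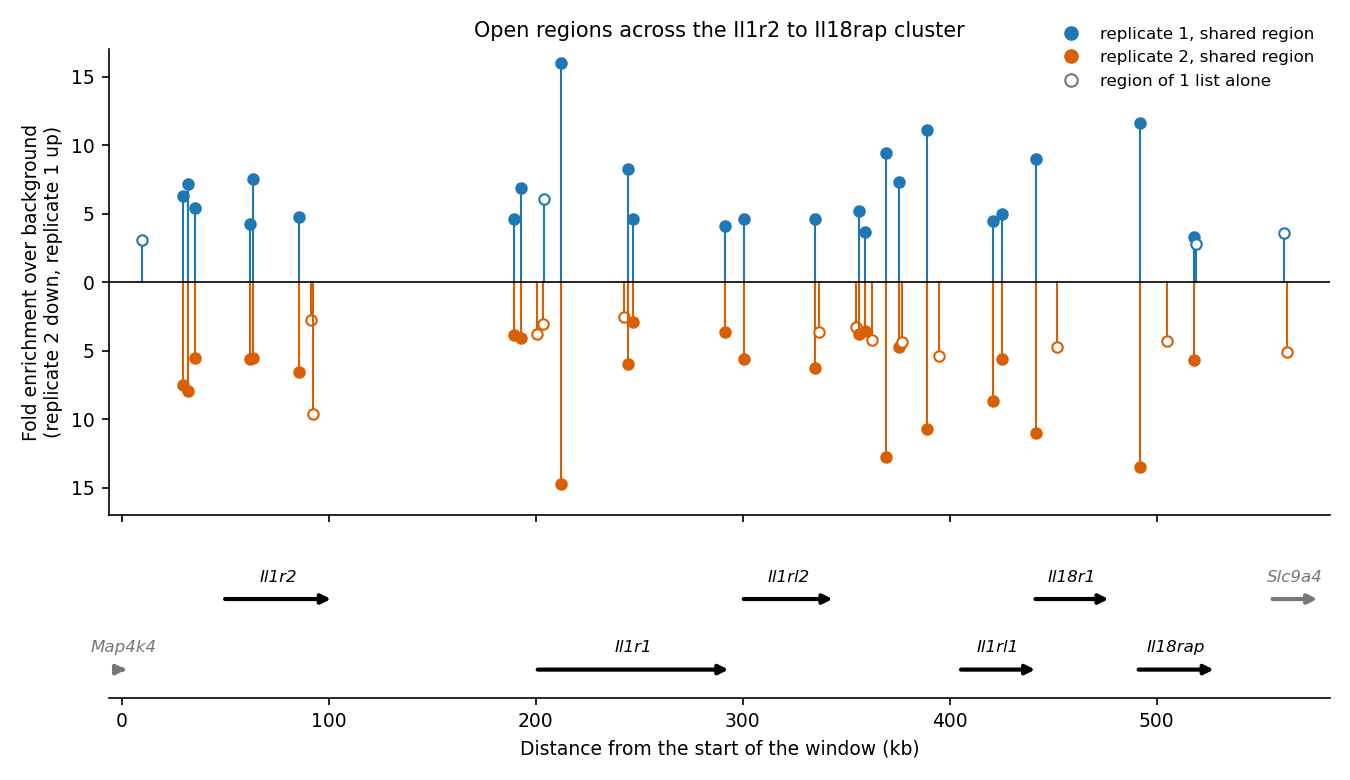
Each stem is an open region at its distance from the start of the window in kb, with the fold enrichment of replicate 1 upward and of replicate 2 downward, filled circles for the 24 shared regions and open circles for regions of 1 list alone; arrows below show the genes and their direction. The highest stems in both directions stand in Il1r1 at 16.0 and 14.7, and no stem falls in the 96.8 kb from the end of region 9, inside Il1r2, to region 10, upstream of Il1r1.

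Most of the open sequence of the cluster lay away from start sites. Of the 24 shared regions, 3 (12.5%) were promoter regions, against 27.5% of all shared regions, while 9 lay in introns, 2 in exons and 10 between genes (41.7%, against 34.5% of all). The 24 regions covered 18.0 kb, or 3.12% of the window, and had a median width of 717 bp, against 736 bp over all shared regions. Their median fold enrichment was 5.31 in replicate 1 and 5.65 in replicate 2, below the 6.19 and 7.08 of all shared regions. Of the 24, only regions 15 and 36 were among the highest 10% of both lists by fold enrichment. The 17 regions of 1 list alone were narrower, with a median of 311 bp, and 2 of them stood at start sites, 10 in introns and 5 between genes.

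Il1r2, the decoy receptor, is 51.2 kb long and had 6 shared regions nearest to it, 3 upstream and 3 in its introns, and none centred within 1 kb of its start site at 40084698. The 3 upstream regions formed a group 25.0 to 30.8 kb before the start. Region 2 (40053427 to 40054402) had fold enrichments of 6.27 in replicate 1 and 7.50 in replicate 2, region 3 (40055865 to 40056335) had 7.17 and 7.93, and region 4 (40059232 to 40060157) had 5.44 and 5.54. Region 3 carried the highest pileup of the whole window, 148 counts in replicate 1 and 198 in replicate 2, more than 95.7% and 95.8% of the regions in the respective lists. Its fold enrichment ranked lower, above 65.4% and 69.0% of the lists, and the local background there was 19.8 and 24.1 counts, against the lowest background in the lists of 2.90 and 3.43. The upstream group as a whole stood on a raised background, with 16.2 and 19.4 counts at region 2 and 13.7 and 17.2 at region 4.

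The sequence at the summit of region 3 is shown because no other region of the cluster had as many counts. It is given 5′ to 3′ on the plus strand of mm10, as are all sequences here, with capitals for matches to the consensus motifs listed further on. Its 1 match was an AP-1 motif, TGACTCA, the site of Fos and Jun factors that are induced when T cells are activated.
Region 3 of Il1r2, chr1:40056047-40056246: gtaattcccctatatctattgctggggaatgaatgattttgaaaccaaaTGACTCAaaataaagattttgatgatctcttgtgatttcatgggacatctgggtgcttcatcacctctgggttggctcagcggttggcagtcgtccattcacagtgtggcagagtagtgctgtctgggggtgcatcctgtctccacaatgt

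Downstream of the Il1r2 start, region 5 (40085478 to 40086639, intron 1) was centred 1.36 kb away and had fold enrichments of 4.23 and 5.59, and region 6 (40086864 to 40087991, intron 1) was centred 2.73 kb away with 7.56 and 5.53. Region 7 (40109324 to 40110251, intron 3) had 4.78 and 6.59. Whether region 5 is a promoter region depended on the annotation. It lay over the start at 40085985 of an Il1r2 transcript that GENCODE lists outside its basic set, and over the RefSeq start at 40086093, which the region of replicate 2 covered and that of replicate 1 did not. It also covered the start at 40085851 of Gm16894, a non-coding gene on the opposite strand, so opening of Il1r2 and of Gm16894 cannot be told apart there. Region 9 (40116349 to 40116695, intron 5) was called in replicate 2 alone with a fold enrichment of 9.60, above 78.2% of that list, and was the strongest region of the window without a partner. Region 8, also in intron 5, and region 1, 50.8 kb upstream, were in 1 list each with 2.76 and 3.05.

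Il1r1, the signalling receptor for interleukin 1, held the strongest region of the cluster in its first intron. Region 15 (40235737 to 40236679), 11.1 kb downstream of the distal start, had fold enrichments of 16.0 and 14.7, above 99.5% and 96.2% of the lists, with 123 and 118 counts. Its summits in the 2 lists lay at the same base. Regions 17 (40268081 to 40269023) and 18 (40271111 to 40271506), 1.97 and 4.72 kb downstream of the later start, had 8.26 and 5.95 and 4.63 and 2.93. Between genes, region 10 lay 11.4 kb upstream of the distal start with 4.61 and 3.84, and region 11 lay 7.85 kb upstream with 6.86 and 4.07. Region 19 (40315427 to 40315745) in exon 11 was weaker, at 4.10 and 3.61.

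At the summit of region 15, the strongest of the cluster, 2 AP-1 matches stood in the 200 bp, and no other motif of the set.
Region 15 of Il1r1, chr1:40236252-40236451: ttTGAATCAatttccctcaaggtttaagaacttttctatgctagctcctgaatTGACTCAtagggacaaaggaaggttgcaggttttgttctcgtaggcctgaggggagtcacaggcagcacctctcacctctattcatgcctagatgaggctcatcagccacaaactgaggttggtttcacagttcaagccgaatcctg

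Neither start site of Il1r1 carried a shared region. Region 12 covered the distal start at 40225080 in replicate 2 alone, with a fold enrichment of 3.80 and 16 counts, and region 16 covered the later start at 40266586 in replicate 2 alone, with 2.52 and 19 counts. Region 16 had a GC content of 73.0%, and the median of all shared promoter regions was 59.9%. In intron 1, region 13 (replicate 2, 3.05) and region 14 (replicate 1, 6.09) were neighbours that did not overlap.

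Il1rl2, the interleukin 36 receptor, had a shared promoter region and 1 further shared region. The promoter region, region 20 (40324507 to 40325448), had fold enrichments of 4.64 and 5.59 from 18 and 27 counts, and its summits in the 2 lists were 404 bp apart, the widest gap of the 24 (median 28.5 bp). Region 21 (40358783 to 40359154), in intron 9, had 4.61 and 6.29 from 23 and 43 counts, and its summits were 1 bp apart. Region 22, in the same intron, was called in replicate 2 alone with 3.66. The summit window of region 21, shown as the strongest shared region of Il1rl2 by the mean of both replicates, held 2 AP-1 matches, a GATA match, a T-box match and a MAF match. GATA motifs are bound by Gata3, the factor that defines Th2 cells, and MAF motifs by Maf, an activator of Il4.
Region 21 of Il1rl2, chr1:40358921-40359120: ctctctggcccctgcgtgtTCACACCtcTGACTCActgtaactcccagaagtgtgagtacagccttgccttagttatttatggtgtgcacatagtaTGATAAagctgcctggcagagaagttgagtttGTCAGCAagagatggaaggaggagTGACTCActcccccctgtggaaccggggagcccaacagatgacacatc

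Il1rl1, the gene of ST2, had no region of either list at any of its 4 start sites in the GENCODE basic set, nor at the other annotated starts. The shared regions nearest to it or inside it lay upstream and in introns. Throughout, regions between genes were assigned by the nearest start alone, and which gene they act on was not tested. The starts at 40429570, 40439627, 40439776 and 40440628 all fell in a stretch of 25.8 kb (40418839 to 40444679) without a region in either list. The nearest region to the distal start, region 31, lay 10.8 kb upstream and was called in replicate 2 alone with 5.42. From the start at 40439627 the nearest region lay 5.30 kb downstream in replicate 1 and 5.34 kb in replicate 2. The lists hold only what passed the authors' threshold, and the lowest summit pileup in them was 9 counts in replicate 1 and 10 in replicate 2, so weaker opening at these starts was not detectable here.

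The 5 shared regions upstream of Il1rl1 spanned 16.3 to 49.2 kb before its distal start. Region 27 (40393145 to 40393883), 36.1 kb upstream, had fold enrichments of 9.44 and 12.8, and region 30 (40412602 to 40413978), 16.3 kb upstream, had 11.1 and 10.7. These were the strongest shared regions between genes in the window. Region 28, 29.8 kb upstream, had 7.28 and 4.74, region 24, 49.2 kb upstream, had 5.17 and 3.81, and region 25, 46.6 kb upstream, had 3.63 and 3.58. Replicate 2 alone also listed regions 23, 26 and 29 here, with 3.26, 4.22 and 4.35. Inside the gene, region 32 (40444679 to 40445187, intron 6) had 4.48 and 8.64 and region 33 (40449329 to 40449758, intron 8) had 5.00 and 5.58.

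The 2 strong upstream regions are shown next, followed by the bases before the distal and the later start of Il1rl1, where no region was called. Region 27 held 1 AP-1 match and 2 RUNX matches, and region 30 held 2 AP-1 matches, 1 IRF match and 1 RUNX match. Before the distal start, 2 GATA matches stood within 250 bp, and at least 1 GATA match stood there in 15.0% of 21931 genes and at least 2 in 2.44%. Before the later start there was 1 GATA match and 1 KLF and SP match, the latter present before 39.0% of genes. A match is a description of the letters and is not a measured binding site.
Region 27 of Il1rl1, chr1:40393314-40393513: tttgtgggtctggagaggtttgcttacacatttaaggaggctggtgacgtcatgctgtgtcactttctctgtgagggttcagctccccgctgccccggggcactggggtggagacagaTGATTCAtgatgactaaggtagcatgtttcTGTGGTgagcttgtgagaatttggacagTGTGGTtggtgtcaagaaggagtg
Region 30 of Il1rl1, chr1:40413174-40413373: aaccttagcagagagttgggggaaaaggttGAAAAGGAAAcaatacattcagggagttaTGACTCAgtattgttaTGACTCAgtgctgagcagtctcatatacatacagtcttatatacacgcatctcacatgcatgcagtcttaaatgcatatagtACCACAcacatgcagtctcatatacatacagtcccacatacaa
Before the distal Il1rl1 start, up to the first exon base of a predicted RefSeq model, chr1:40429320-40429532: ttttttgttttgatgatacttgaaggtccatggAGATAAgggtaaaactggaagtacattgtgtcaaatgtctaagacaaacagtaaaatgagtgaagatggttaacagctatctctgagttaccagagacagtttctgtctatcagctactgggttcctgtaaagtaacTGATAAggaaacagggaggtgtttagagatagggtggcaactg
Before the later Il1rl1 start, chr1:40439377-40439626: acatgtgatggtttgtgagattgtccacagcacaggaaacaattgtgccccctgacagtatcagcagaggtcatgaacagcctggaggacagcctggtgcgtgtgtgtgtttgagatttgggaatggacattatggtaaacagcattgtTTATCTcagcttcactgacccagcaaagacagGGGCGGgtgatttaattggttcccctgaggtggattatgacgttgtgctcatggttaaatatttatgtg

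Il18r1, the chain that binds interleukin 18, starts 136 bp after the end of Il1rl1, and its only shared region was at its promoter. Region 34 (40465488 to 40466211) covered all 4 of its starts in the GENCODE basic set and had fold enrichments of 9.00 and 11.0 from 43 and 73 counts, above 77.8% and 84.2% of the lists. Region 35 in intron 3, called in replicate 2 alone with 4.74, was the only other region nearest to Il18r1. Il18rap, the accessory chain, had the strongest promoter region of the cluster. Region 36 (40514923 to 40516755) was 1833 bp wide, the widest of the 24, and had 11.6 and 13.5 from 92 and 131 counts, above 90.1% and 93.1% of the lists. Its centre lay 477 bp downstream of the start at 40515362, but its summits, at 40516448 and 40516525, were more than 1 kb downstream. Region 38 (40541753 to 40542129, exon 10) had 3.33 and 5.71, the lowest shared value of replicate 1 in the window, and regions 37 and 39, in introns 6 and 10, were in 1 list each with 4.29 and 2.82.

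Upstream bases of both interleukin 18 receptor genes are shown because their promoter regions had the highest fold enrichments among promoter regions of the cluster. Before the Il18r1 start stood a STAT match with a spacer of 4 bases (present before 5.42% of genes) and an NFAT match (18.6%). Both lay before the first base of region 34 (40465488), outside the called region. The 200 bp at the replicate 1 summit of region 34 held other matches, STAT with a spacer of 3 bases, RUNX and E-box. Before the Il18rap start, within region 36, stood a TCF and LEF match (4.62%), a GATA match (15.0%) and a STAT match with a spacer of 4 bases. STAT motifs are bound by factors that cytokine receptors activate, Stat6 in the case of interleukin 4.
Before the first Il18r1 start, after the last exon base of a predicted RefSeq model of Il1rl1, chr1:40465419-40465551: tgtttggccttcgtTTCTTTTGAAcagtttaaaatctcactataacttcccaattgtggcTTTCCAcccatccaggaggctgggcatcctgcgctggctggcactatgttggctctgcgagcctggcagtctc
Before the Il18rap start, chr1:40515112-40515361: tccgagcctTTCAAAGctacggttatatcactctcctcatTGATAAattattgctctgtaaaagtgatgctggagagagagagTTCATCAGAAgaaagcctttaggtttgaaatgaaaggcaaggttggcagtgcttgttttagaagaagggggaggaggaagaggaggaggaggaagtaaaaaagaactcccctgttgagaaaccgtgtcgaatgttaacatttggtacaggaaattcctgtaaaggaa

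Set side by side, 3 of the 6 genes had a shared promoter region, Il1rl2, Il18r1 and Il18rap, and Il1r2, Il1r1 and Il1rl1 had none. Over all protein-coding genes the share was 57.3%, so the count of the cluster was near the background and is not a result about these genes. Il1r1 had a promoter region in replicate 2 and no shared one, a state found at 2.10% of genes. With the start sites of all annotated GENCODE transcripts, Il1r2 was added through region 5, giving 4 of 6 against 59.1% of genes. Fold enrichments of the promoter regions were lowest at Il1rl2 (4.64 and 5.59), intermediate at Il18r1 (9.00 and 11.0) and highest at Il18rap (11.6 and 13.5). The order was the same in each replicate, and how often other genes separate in this way was not tested. The fold enrichments of Il18rap belong to summits more than 1 kb downstream of its start, and with the summit required within 1 kb it had no promoter region. The median over all genes with such a region was 9.68 in replicate 1 and 10.9 in replicate 2.

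**Figure D2:**
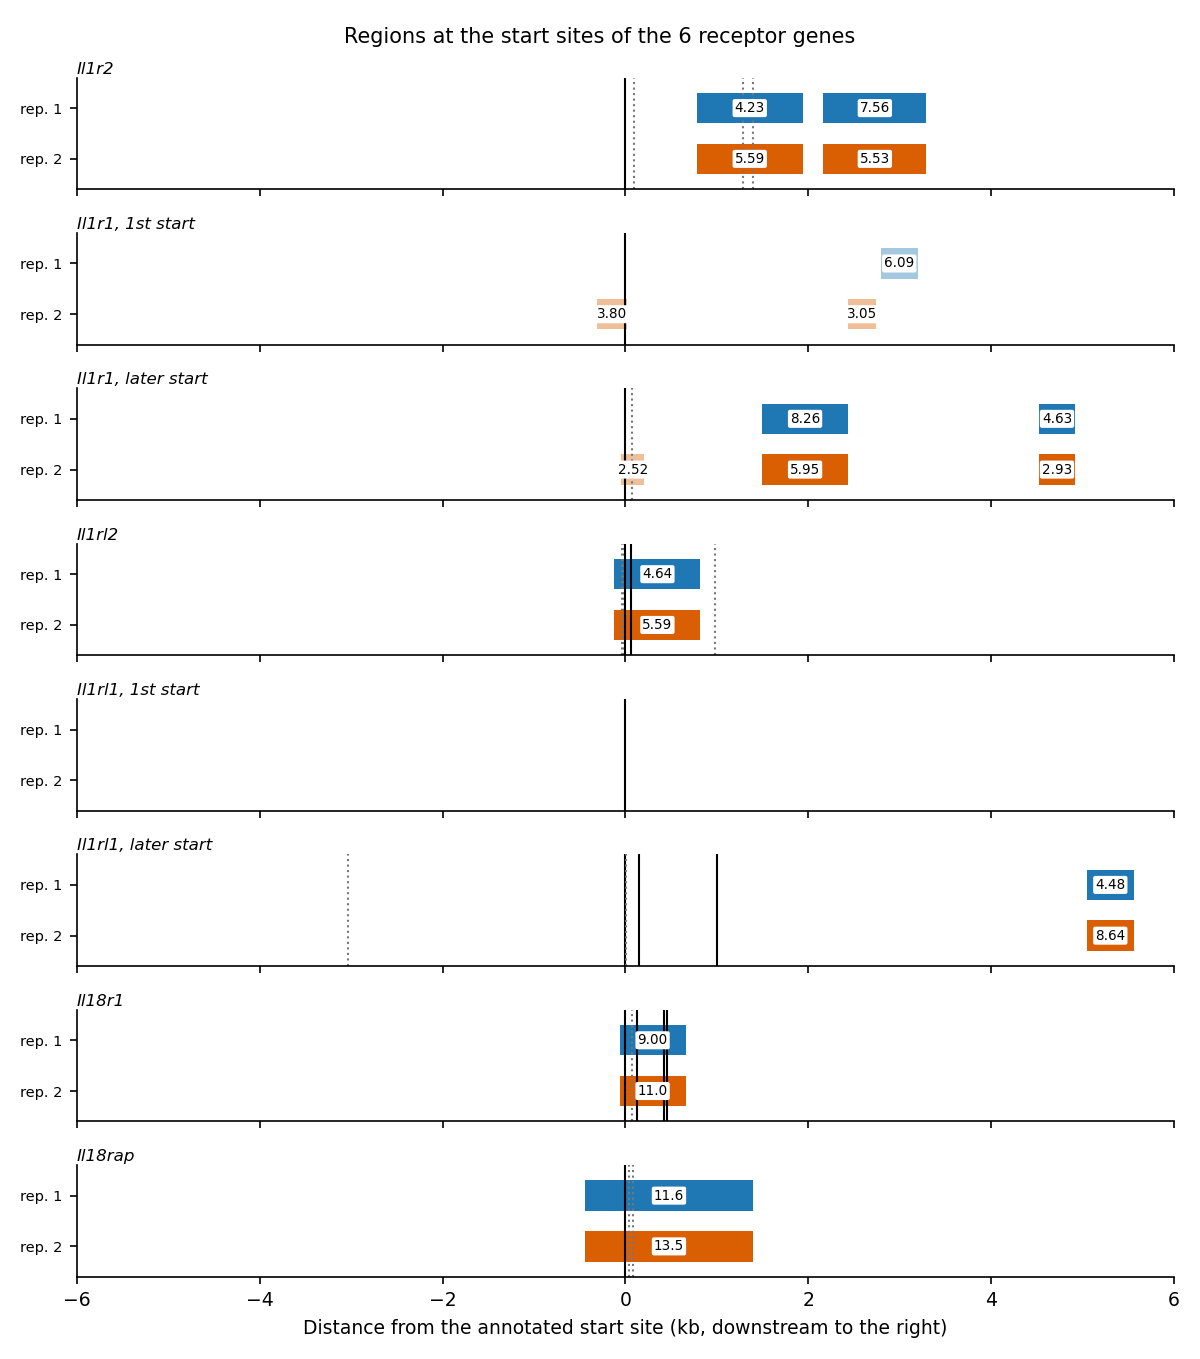
Joined regions within 6 kb of the annotated start sites of each gene, on an axis of distance from the start in kb, with replicate 1 above and replicate 2 below, fold enrichment printed on each bar, pale bars for regions of 1 list alone, solid lines for starts of the GENCODE basic set and dotted lines for other annotated starts. Bars cover the starts of Il1rl2, Il18r1 and Il18rap in both replicates, Il1r1 has a pale bar of replicate 2 at each of its 2 starts, and the panels of Il1rl1 are empty except for 4.48 and 8.64 downstream.

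Promoters rich in the dinucleotide CpG are known to be open in most cells, so the starts were also split by the ratio of observed to expected CpG within 500 bp. The highest ratio over a gene's starts was 0.113 for Il1r2, 0.221 for Il18rap, 0.303 for Il1rl1, 0.332 for Il18r1, 0.460 for Il1r1 and 0.499 for Il1rl2. Below a ratio of 0.4, a limit chosen here, 11.0% of 7877 genes had a shared promoter region, and of the 4 cluster genes on that side Il18r1 and Il18rap did. At or above 0.4 the share was 83.3% of 14050 genes, and of the 2 cluster genes on that side Il1rl2 did and Il1r1 did not. Il18r1 and, by the centre of its region, Il18rap therefore stood with the minority of low CpG genes that had one. With the summit required within 1 kb, Il18rap did not.

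Differences between the 2 replicates ran in both directions across the cluster. Of the 24 shared regions, 13 (54.2%) had a higher fold enrichment in replicate 2, against 71.3% of all shared regions, and the ratio of replicate 2 to replicate 1 had a median of 1.06, against 1.11. The ratio lay outside the 5th to 95th percentile of all shared regions (0.760 to 1.64) at 8 of 24, below it at 6 and above it at 2. With 1 library per replicate these differences could not be tested.

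Grouped by gene, the shared regions in or nearest Il1r1 were lower in replicate 2 in 6 of 6, with ratios from 0.593 (region 11) to 0.919 (region 15). Their summed pileup was 286 counts in replicate 1 and 237 in replicate 2, a ratio of 0.829, whereas over all shared regions the ratio of pileups was 1.38. At Il1r2, 5 of 6 were higher in replicate 2, with region 6 the exception at 0.732, and summed pileups were 468 and 605. At Il1rl1 the ratios ran from 0.650 at region 28 to 1.93 at region 32, with 3 of 7 higher in replicate 2, and summed pileups were 229 and 320. Both regions of Il1rl2 and of Il18rap and the 1 region of Il18r1 were higher in replicate 2. The pattern at Il1r1 was picked out after its values were seen, and the unshared regions there ran the other way, with regions 12, 13 and 16 in replicate 2 alone and region 14 in replicate 1 alone.

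**Figure D3:**
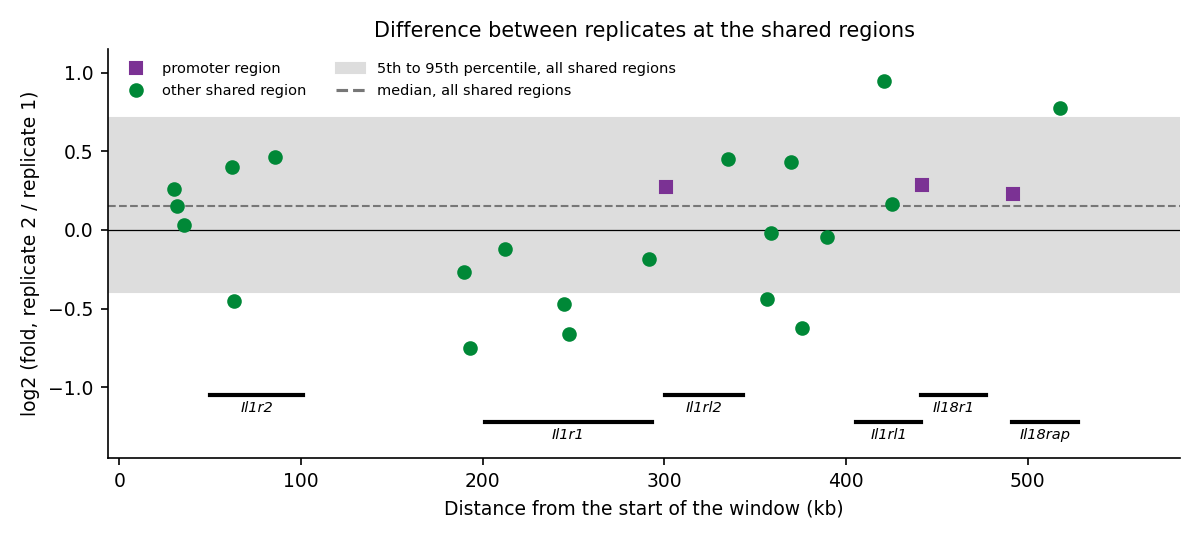
Each marker is a shared region at its distance from the start of the window in kb, and its height is the log2 ratio of the fold enrichment of replicate 2 to that of replicate 1, with squares for promoter regions, circles for others, a grey band for the 5th to 95th percentile of all shared regions and a dashed line for their median. The 6 markers over and before Il1r1 lie below 0 (ratios of 0.593 to 0.919), and the 2 above the band are in Il1rl1 (1.93) and Il18rap (1.71).

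Consensus motifs were searched on both strands of the 200 bp at the replicate 1 summit of each shared region. The GATA motif was AGATAA or, with the other allowed first base, TGATAA. AP-1 was TGANTCA, where N is any base, and STAT was TTCNNNGAA (a spacer of 3 bases) or the same with a spacer of 4. NFAT was TGGAAA, RUNX was TGTGGT, T-box was GGTGTGA, TCF and LEF was CTTTGAA and MAF was TGCTGAC. NF-κB was GGGNNTTCC or the same with 1 more T, ETS was CCGGAAGT or the alternative ACAGGAAG, the E-box was CACCTG, and KLF and SP was GGGCGG. IRF was a pair of GAAA units with 2 bases between them, and a CTCF consensus was searched as well. Matches of different motifs may overlap, such as NF-κB with NFAT, or STAT with a spacer of 4 with TCF and LEF or E-box, and each was counted for its own motif. Comparison sets were 44058 shared regions, 31951 of them outside promoters, and 78357 windows of the same width 1 kb away from summits that overlapped no region. Intervals are 95% Wilson intervals and cover counting error only.

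AP-1 matches stood in 9 of the 24 summit windows (37.5%, interval 21.2 to 57.3%), RUNX matches, bound by T cell factors of that family, in 8 (33.3%, 18.0 to 53.3%) and GATA matches in 7 (29.2%, 14.9 to 49.2%). The order of these 3 depended on the window: at the replicate 2 summit AP-1 and RUNX were both at 37.5% and GATA at 25.0%, and over 400 bp RUNX was the highest of the 3, ahead of GATA at 41.7% and AP-1 at 37.5%. Outside promoters, where like can be set beside like, AP-1 was in 9 of 21 windows (42.9%, 24.5 to 63.5%), against 27.7% of all shared regions outside promoters and 5.24% of windows away from regions. GATA was in 7 of 21 (33.3%, 17.2 to 54.6%), against 19.3% and 19.0%, so that over the genome the GATA letters were about as frequent beside open regions as at summits outside promoters. RUNX was in 6 (28.6%), against 22.5% and 15.2%, and TCF and LEF in 3 (14.3%, 4.98 to 34.6%), against 5.87% and 4.72%. The intervals of AP-1, GATA and TCF and LEF all include the share of all shared regions outside promoters.

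At the replicate 1 summit neither an ETS nor a CTCF match stood in any of the 24 windows, where 3 counts of 24 set the limit at 12.5%, and 8.34% and 6.78% of all shared regions held one. At the replicate 2 summit 4.17% of the windows held an ETS match. The 9 AP-1 windows belonged to regions 2, 3, 11, 15, 17, 21, 27, 30 and 32, none of them a promoter region. Among the 21 shared regions outside promoters, those with an AP-1 match had a median fold enrichment of 7.17 in replicate 1 and 7.93 in replicate 2, against 4.71 and 5.14 for the 12 without. Over all 31951 the medians were 6.15 and 7.45 with a match and 5.32 and 5.87 without. The 7 GATA windows were those of regions 5, 10, 11, 17, 19, 21 and 28. Their median fold enrichments were 4.61 and 4.74, against 5.31 and 6.15 for the 14 without a match. Over all 31951 the GATA medians were 5.64 and 6.01 with a match and 5.47 and 6.32 without, so the direction there differed between replicates. Regions 11, 17 and 21 held both motifs.

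**Figure D4:**
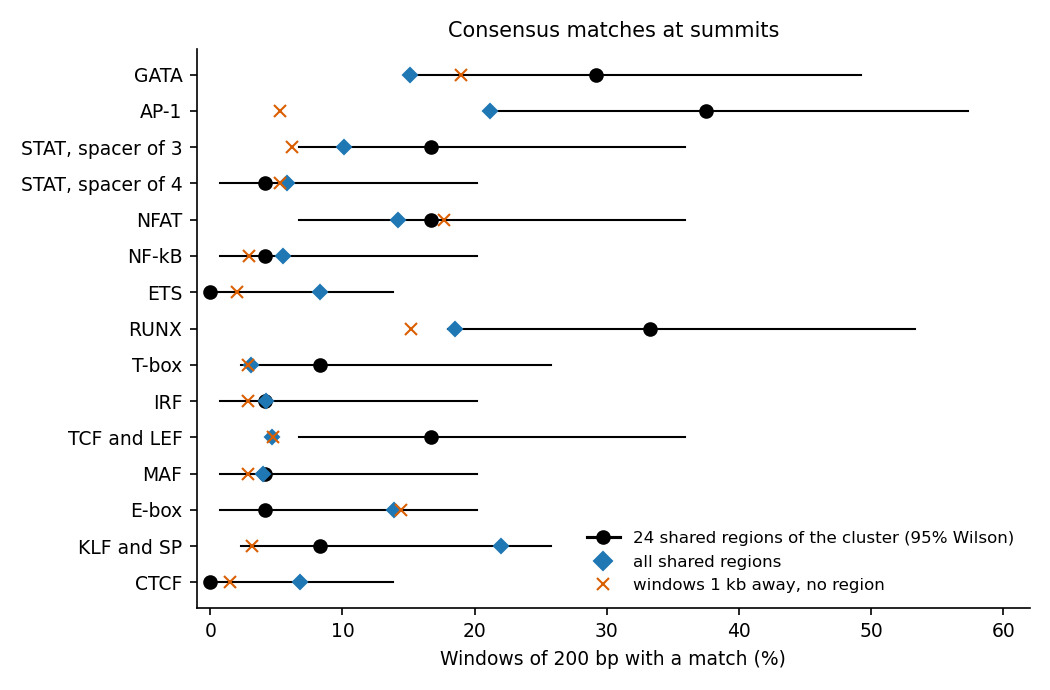
For each motif, the horizontal axis gives the percentage of 200 bp windows with at least 1 match: black circles with 95% Wilson intervals for the 24 shared regions of the cluster, blue diamonds for all shared regions and orange crosses for windows 1 kb away that overlap no region. The circles of AP-1 (37.5%), RUNX (33.3%) and GATA (29.2%) are the highest, and those of ETS and CTCF are at 0.

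Genes that act with these receptors were followed by role, in lists of 46 genes in all, of which 34 (73.9%) had a shared promoter region, against 57.3% of all protein-coding genes. The ligands and the rest of the pathway differed in their counts. These lists were not split by CpG ratio, and over all genes the share was 11.0% below a ratio of 0.4 and 83.3% at or above it. Whether CpG content went with the difference was not tested. Of 10 ligand genes only Il18 had one, with 5.93 and 7.85. None was present at Il1a and Il1b (interleukin 1), Il33 (the ligand of ST2), Il1f6, Il1f8 and Il1f9 (the interleukin 36 agonists), the antagonist gene Il1f5 or Il1f10, and Il1rn, the interleukin 1 receptor antagonist, had a region in replicate 2 alone. Il33 nevertheless held 2 shared regions in its body, as did Il18.

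Among 6 partner genes, 3 had a shared promoter region. Il1rap, the co-receptor chain that Il1r1, Il1rl1 and Il1rl2 share, had 11.1 and 13.5, above all members of the cluster except Il18rap, whose values were 11.6 and 13.5. Tmed1, a protein reported to bind ST2, had 7.62 and 9.28, and Il18bp, the soluble trap of interleukin 18, had 3.41 and 4.27. Sigirr, an inhibitory receptor of the family, had a region in replicate 2 alone, and Il1rapl1 and Il1rapl2, receptors known from neurons, had none.

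All 13 adaptors and proximal kinases had a shared promoter region, with a median of 10.3 and 11.1. The highest were Irak4, the first kinase recruited by Myd88, with 14.1 and 16.3, the ubiquitin ligase gene Peli1 with 12.1 and 14.4, and Tab3, a partner of the kinase Tak1, with 12.0 and 13.5. All 9 kinases and subunits of the NF-κB and MAP kinase arms had one as well, the highest being Ikbkg (14.5 and 16.8), Mapk9 (15.3 and 15.9) and Map3k3 (14.0 and 14.8). The 4 genes that process interleukin 1 and 18 precursors and release them had one too, with Pycard at 8.78 and 10.3, Gsdmd at 5.94 and 8.53, Nlrp3 at 4.36 and 6.97 and Casp1, which cleaves the precursors, at 6.08 and 4.22. Of the 4 known targets of the pathway, Nfkbiz had 11.5 and 13.5, Zc3h12a 7.03 and 9.42 and Tnfaip3 7.38 and 8.62.

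**Figure D5:**
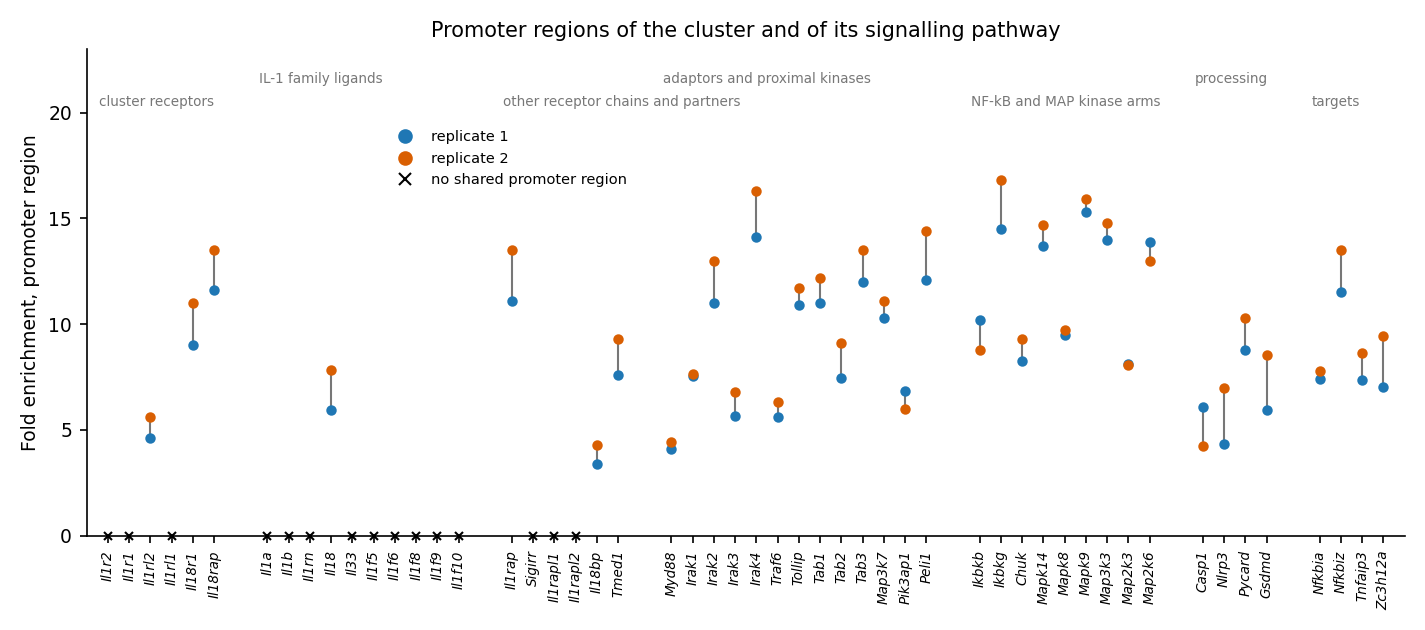
Fold enrichment of the strongest shared promoter region of each gene (vertical axis, a ratio without unit) in replicate 1 (blue) and replicate 2 (orange), for the 6 receptor genes of the cluster and 46 genes of their pathway grouped by role; a cross on the axis marks a gene without one. Crosses stand at 9 of 10 ligands, and none stands among the 13 adaptors and proximal kinases or the 9 genes of the NF-κB and MAP kinase arms.

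The cluster was bordered by 2 other protein-coding genes with bases in the window. Map4k4, a kinase gene on the Il1r2 side, had a shared promoter region outside the window with 6.60 and 8.94 and no region of either list in the part of its body inside the window. Slc9a4, a sodium and proton exchanger gene on the Il18rap side, had no promoter region, and its body held only region 40 (replicate 1 alone, 3.59) and region 41 (replicate 2 alone, 5.07), both in intron 2. The largest stretch of the window without a region in either list was 96.8 kb from region 9, inside Il1r2, to region 10, upstream of Il1r1. The next were 43.9 kb inside Il1r1 from 40271506 to 40315427, and 42.6 kb from the last region in Il18rap to region 40 in Slc9a4.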

How the data were processed

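Open regions of 2 ATAC-seq libraries of 1 group were used as deposited. Per the file headers, each list derived from 1 mm10 alignment of its own library, so regions were called per library. Which aligner, peak caller, software versions and transposase shift were used is not given in the sources used here. Per the file headers the lists are in the narrowPeak format, so the authors' values are a fold enrichment (a ratio) and, for every region, a −log10 p-value, a −log10 q-value (p adjusted for multiple tests) and a summit position in bases. Library depth is not stated.

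With Python 3.11.15, NumPy 2.4.6, SciPy 1.17.1 and Matplotlib 3.10.9, regions overlapping by 1 bp were joined and classed by their centre as promoter (within 1 kb of a GENCODE M21 basic start of a protein-coding gene), exon, intron or intergenic. Where a joined region held several of 1 list, the one with the highest fold was used. Pileup and background were recovered from fold enrichment and p-value under a Poisson model with a pseudocount of 1, within 0.001 of −log10 p, for 99.979% and 99.931% of regions. RefSeq promoter sequences (GRCm38.p6) were found for all 6 genes and were the same as the genome. The steps were tested on simulated data.

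Members and lists were chosen with earlier results of these data known. Named were the 6 genes, their protein-coding neighbours, every region of the window and, per pathway list, the 3 genes with the highest promoter fold (mean of both replicates) and those without a promoter region. Of the marker genes, Trac could not be matched, and Il1r2 was left out of the target list because it is a member. No comparison of conditions was possible. Alternatives changed the overlap, the q threshold, the flank, the promoter rule, the start sites, the motif window and the replicate.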

Additional observations from a re-analysis of the deposited data

How the results depend on the processing

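No paired analysis was possible because there was 1 group. The count of 24 shared regions became 11 when a −log10 q of at least 10 was required in both lists, and 20 at 5. With 1 list alone the window held 29 regions (without replicate 2) or 37 (without replicate 1). Flanks of 0, 20 and 100 kb gave 21, 24 and 27, and an overlap of at least 50% of the shorter region gave 24.

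The 3 genes with a shared promoter region became 5 when the centre could lie within 2.5 kb, which added Il1r2 and Il1r1. They became 2 without Il1rl2 at a −log10 q of at least 10, and 2 without Il18rap when the summit had to lie within 1 kb. Leaving out a replicate gave 3 (without replicate 2) to 4 (without replicate 1, adding Il1r1), and a region edge within 1 kb gave 4 (adding Il1r2). Start sites of all GENCODE transcripts or of RefSeq, both alternatives chosen after seeing the data, gave 4 with Il1r2. Il1rl1 had no promoter region under any of these. The pathway count of 34 ranged from 31 to 36. The median fold enrichment of 5.31 in replicate 1 was 5.65 in replicate 2. Of 30 motif shares recomputed at the replicate 2 summit or over 400 bp, 1 left its 95% Wilson interval, E-box from 4.17% to 20.8% over 400 bp, but these intervals are wide: GATA went from 29.2% to 41.7% over 400 bp, and ETS from 0 to 4.17% at the replicate 2 summit.

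The lists give no coverage outside called regions, so the depth limits what can be said of starts without one.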
